A study of Saccharomyces cerevisiae with 8 samples.

Results

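Glycogen, the branched glucose polymer that budding yeast lays down as glucose runs out, is made and broken down by the enzymes of 10 genes, GSY1, GSY2, GLG1, GLG2, GLC3, GPH1, GDB1, PGM1, PGM2 and UGP1. The rule takes the genes by name and uses no measured value, although it was set with earlier results of these data known. They are 10 of the 7126 rows of the deposited table, and all 10 passed the filter of a mean of at least 1 FPKM. An 11th row, YPR160W-A, carries the name GPH1 too. It was listed at 0 in all 8 libraries, and GPH1 is given here by its locus tag YPR160W. FPKM relates fragments to the length of the gene and to the size of the library, so it compares levels between genes and shows shares of the messenger RNA, not molecules per cell.

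RNA was sequenced from yeast of the laboratory background BY4741 in which GCR1, the gene of an activator of glycolytic genes, carries a deletion. Strain U, named JHY9100, carried GCR1 (∆1-574) and made Gcr1(U). Strain S, named JHY9200, carried GCR1 (∆4-742) and made Gcr1(S). Each was grown in YPD with 2% glucose without further treatment and sampled at 6 h, labelled exponential phase, and at 12 h, labelled diauxic shift, with 2 libraries in each of the 4 groups. All groups carry a deletion in GCR1, and no strain without one is analysed here. The labels name 1 strain per form and say neither how many clones stand behind it nor whether replicates are separate cultures, so p-values measure the spread between these libraries.

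Synthesis starts from glucose-6-phosphate, which phosphoglucomutase turns into glucose-1-phosphate and UDP-glucose pyrophosphorylase into UDP-glucose. Glycogenin makes a short primer on itself, glycogen synthase lengthens the chain and the branching enzyme adds the branch points. Glycogen phosphorylase and the debranching enzyme take the polymer apart again. In yeast these genes are known to respond to falling glucose and to stress, and many are known targets of Msn2 and Msn4, activators that bind the stress response element, while protein kinase A holds them down during growth on glucose.

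The members lie on 7 chromosomes, and each has 1 coding exon and overlaps no other RefSeq gene of the R64 assembly. The locations are VI from 174265 to 176391 for GSY1, XII from 660716 to 662833 for GSY2, XI from 552770 to 554620 for GLG1 and X from 154985 to 156127 for GLG2. GLC3 lies on V from 133120 to 135234, GPH1 on XVI from 861306 to 864014 and GDB1 on XVI from 902044 to 906654. PGM1 lies on XI from 203541 to 205253, PGM2 on XIII from 475897 to 477606 and UGP1 on XI from 369891 to 371390. The 300 bases before the annotated start of the coding sequence of 4 members are printed because they cover the range of time courses: PGM1 fell, PGM2 and GLC3 had higher mean levels at 12 h and UGP1 a lower one. They are on the gene's strand of the RefSeq R64 genome, at chrXI:203241-203540 (plus strand), chrXIII:477607-477906 (minus), chrV:132820-133119 (plus) and chrXI:369591-369890 (plus). Capitals mark the stress response element, searched as CCCCT and as AGGGG, its reverse complement.
PGM1: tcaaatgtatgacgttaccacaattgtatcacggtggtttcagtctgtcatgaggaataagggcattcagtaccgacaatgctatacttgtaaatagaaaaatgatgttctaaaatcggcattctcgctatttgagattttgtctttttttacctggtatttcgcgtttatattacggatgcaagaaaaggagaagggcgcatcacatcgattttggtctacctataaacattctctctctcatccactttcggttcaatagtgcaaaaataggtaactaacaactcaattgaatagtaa
PGM2: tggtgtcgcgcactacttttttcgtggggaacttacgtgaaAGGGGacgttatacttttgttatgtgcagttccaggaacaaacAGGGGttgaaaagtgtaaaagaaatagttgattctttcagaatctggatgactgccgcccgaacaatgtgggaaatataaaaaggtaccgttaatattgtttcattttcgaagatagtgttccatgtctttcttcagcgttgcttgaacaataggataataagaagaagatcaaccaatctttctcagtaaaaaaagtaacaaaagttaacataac
GLC3: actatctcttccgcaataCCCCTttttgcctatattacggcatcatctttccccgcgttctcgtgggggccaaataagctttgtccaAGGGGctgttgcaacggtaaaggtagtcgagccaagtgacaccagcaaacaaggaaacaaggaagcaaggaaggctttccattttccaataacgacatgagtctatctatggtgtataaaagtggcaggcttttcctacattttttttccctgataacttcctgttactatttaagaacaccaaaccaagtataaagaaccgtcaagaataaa
UGP1: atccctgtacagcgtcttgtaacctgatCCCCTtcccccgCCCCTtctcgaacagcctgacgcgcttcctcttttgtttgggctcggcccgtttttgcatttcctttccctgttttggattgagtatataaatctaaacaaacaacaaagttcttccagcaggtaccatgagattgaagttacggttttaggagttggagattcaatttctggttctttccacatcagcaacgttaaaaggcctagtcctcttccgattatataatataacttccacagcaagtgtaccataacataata

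Within 300 bases of the start, 6 of the 10 members held the element, against 22.2% of 6020 protein-coding genes. In that window 3 members held it at least 2 times, against 3.44%. Within 600 bases, a window chosen after values were seen, 9 of 10 held it, against 39.6% of 6018 genes. Of these, 8 held it at least 2 times, against 10.7% of all genes. PGM2 had the most matches within 600 bases, 6, the nearest at position -216, and UGP1 had 5. PGM1 held 3, all farther than 300 bases from the start, and GLG1 held 0 in either window. The matches describe the letters alone and show no binding.

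The comparison of 12 h with 6 h asks which of these genes differ between exponential phase and the diauxic shift. In both strains GLG1, GLG2, GLC3 and GDB1 rose and PGM1 fell, while GSY1, GSY2, GPH1, PGM2 and UGP1 did not pass the test. That is 5 of 10 members in U, where 55.3% of the 6339 genes tested changed, and 5 of 10 in S, where 56.1% did, shares near the background. Calls rest on limma with Benjamini-Hochberg adjustment over all genes, at an adjusted p under 0.05. By direction, 4 of 10 rose in each strain, against 33.5% of all genes in U and 33.2% in S, and 1 of 10 fell, against 21.7% and 22.9%. The median log2 fold change of the 10 members was 2.14 in U and 2.22 in S, against 0.26 and 0.23 over all genes. The middle values in both strains were those of GSY2 and PGM2, which did not pass and shrank when replicate 2 of 6 h was left out. With median-of-ratios scaling the median of all genes was 0.02 in both strains, and genes that rose were 48.5% of the calls in U and 48.8% in S, against 60.7% and 59.2% with the deposited values. The directions of the 10 members were the same with that scaling.

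**Figure D1:**
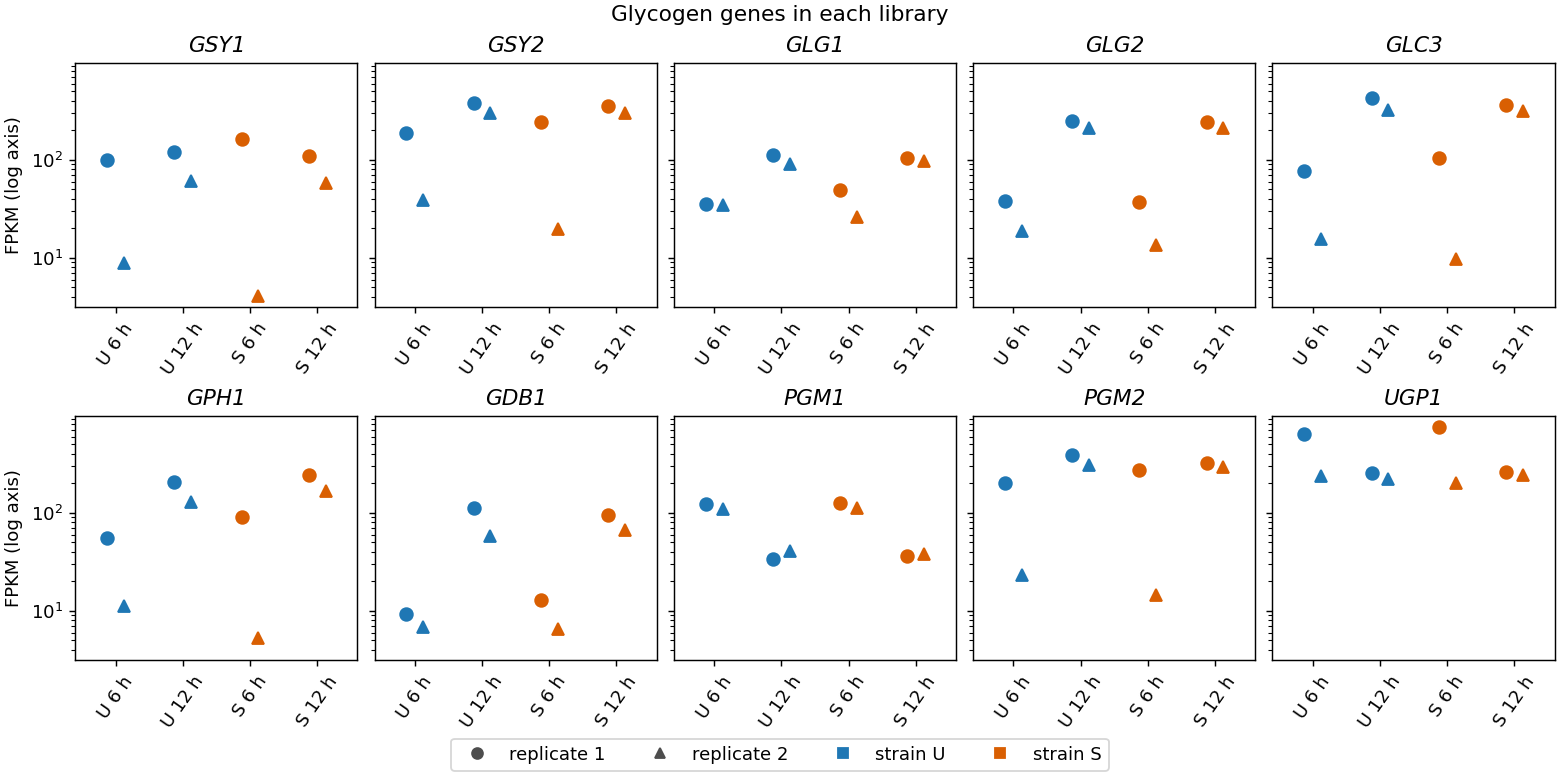
FPKM of each gene on a log axis (vertical) in the 4 groups (horizontal), with a circle for replicate 1, a triangle for replicate 2, blue for strain U and orange for strain S. PGM1 is lower in all 4 libraries of 12 h (33.5 to 41.2 FPKM) than of 6 h (110 to 126), and GSY1 runs from 4.09 to 163 FPKM at 6 h alone.

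Among the genes that supply UDP-glucose, the pair of phosphoglucomutases moved apart. PGM1, known as the minor phosphoglucomutase, was at 125 and 110 FPKM at 6 h in replicates 1 and 2 of U and at 33.5 and 41.2 at 12 h. In S it was at 126 and 113 FPKM and then at 35.9 and 38.3. The groups of 6 h and 12 h did not overlap in either strain, and replicates lay close together. Its log2 fold change was -1.63 in U (SE 0.16, adjusted p = 0.000512) and -1.66 in S (SE 0.16, adjusted p = 0.000453), or 0.32-fold in both.

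PGM2, known as the major phosphoglucomutase, stood at 202 and 23.5 FPKM at 6 h in U and at 386 and 306 at 12 h. The values in S were 277 and 14.4 FPKM at 6 h and 324 and 297 at 12 h. Both libraries of 12 h were above both of 6 h in each strain, but the 6 h libraries of a group were up to 18.0-fold apart on the scale of FPKM + 1. The log2 fold changes of 2.29 in U (95% interval -1.23 to 5.82, adjusted p = 0.223) and 2.25 in S (-1.28 to 5.77, adjusted p = 0.229) did not pass the test. UGP1, the pyrophosphorylase that makes UDP-glucose for glycogen, trehalose and cell wall glucans, was the most abundant member at 6 h. It stood at 641 and 239 FPKM at 6 h and 255 and 220 at 12 h in U, and at 751 and 203 and then 258 and 242 in S. The libraries of 12 h and 6 h overlapped in both strains. Its log2 fold changes were -0.73 in U (adjusted p = 0.393) and -0.64 in S (adjusted p = 0.451), where it turned to 0.30 without S 6 h replicate 1.

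Both glycogenin genes rose. GLG2 was at 37.9 and 18.9 FPKM at 6 h and at 247 and 211 at 12 h in U. In S it went from 37.1 and 13.7 FPKM to 246 and 213. The groups did not overlap, and the log2 fold changes were 3.05 in U (SE 0.50, adjusted p = 0.00321) and 3.28 in S (SE 0.50, adjusted p = 0.00242). GLG1 stood at 35.2 and 34.3 FPKM at 6 h and 113 and 89.9 at 12 h in U, and at 48.9 and 26.1 and then 106 and 97.8 in S. Its log2 fold changes were 1.51 in U (SE 0.29, adjusted p = 0.00597) and 1.48 in S (SE 0.29, adjusted p = 0.00632).

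Of the glycogen synthases, GSY2 was the more abundant in every library, and neither passed the test. GSY2 was at 186 and 38.6 FPKM at 6 h and 385 and 304 at 12 h in U. The S libraries held 244 and 19.9 FPKM and then 354 and 302. The groups did not overlap, with log2 fold changes of 1.99 in U (95% interval -0.89 to 4.88, adjusted p = 0.197) and 2.19 in S (-0.69 to 5.08, adjusted p = 0.161). GSY1 stood at 100 and 8.84 FPKM at 6 h and 121 and 61.4 at 12 h in U, and at 163 and 4.09 and then 111 and 58.6 in S. Its groups overlapped in both strains, since replicate 1 of 6 h was above replicate 2 of 12 h. The log2 fold changes of GSY1 were 1.46 in U (adjusted p = 0.501) and 1.50 in S (adjusted p = 0.491), with 95% intervals from -2.74 to 5.67 and -2.71 to 5.70. They turned to -0.22 in U without U 6 h replicate 2 and to -1.01 in S without S 6 h replicate 2.

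GLC3, the branching enzyme, had the highest mean level of the members at 12 h in both strains. It stood at 77.1 and 15.7 FPKM at 6 h and 429 and 321 at 12 h in U, and at 105 and 9.64 and then 364 and 313 in S. All libraries of 12 h were above those of 6 h. The log2 fold changes were 3.36 in U (SE 1.14, adjusted p = 0.0444) and 3.33 in S (SE 1.14, adjusted p = 0.0451). These calls were near the threshold. With median-of-ratios scaling the adjusted p was 0.0542 in U and 0.0534 in S, and over all settings it ran from 0.000148 to 0.204 in U and from 0.000151 to 0.168 in S. The call in U was lost without U 6 h replicate 2, where the log2 fold change was 2.25, and without any 1 of the 4 libraries of 12 h. In S it was lost without S 6 h replicate 2, with a log2 fold change of 1.67, and likewise without any 1 of the libraries of 12 h.

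On the side of breakdown, GDB1 rose in both strains. GDB1, the debranching enzyme, was at 9.24 and 6.77 FPKM at 6 h, the lowest mean of the members in U, and at 113 and 58.3 at 12 h. In S it went from 13.0 and 6.52 FPKM to 94.7 and 66.2. Its log2 fold changes were 3.20 in U (SE 0.43, adjusted p = 0.00151) and 2.97 in S (SE 0.43, adjusted p = 0.00201). GPH1, glycogen phosphorylase, stood at 55.3 and 11.2 FPKM at 6 h and 206 and 129 at 12 h in U, and at 91.7 and 5.29 and then 246 and 168 in S. Its groups did not overlap, but the log2 fold changes of 2.65 in U (95% interval -0.45 to 5.75, adjusted p = 0.123) and 3.08 in S (-0.02 to 6.19, adjusted p = 0.0825) did not pass the test.

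**Figure D2:**
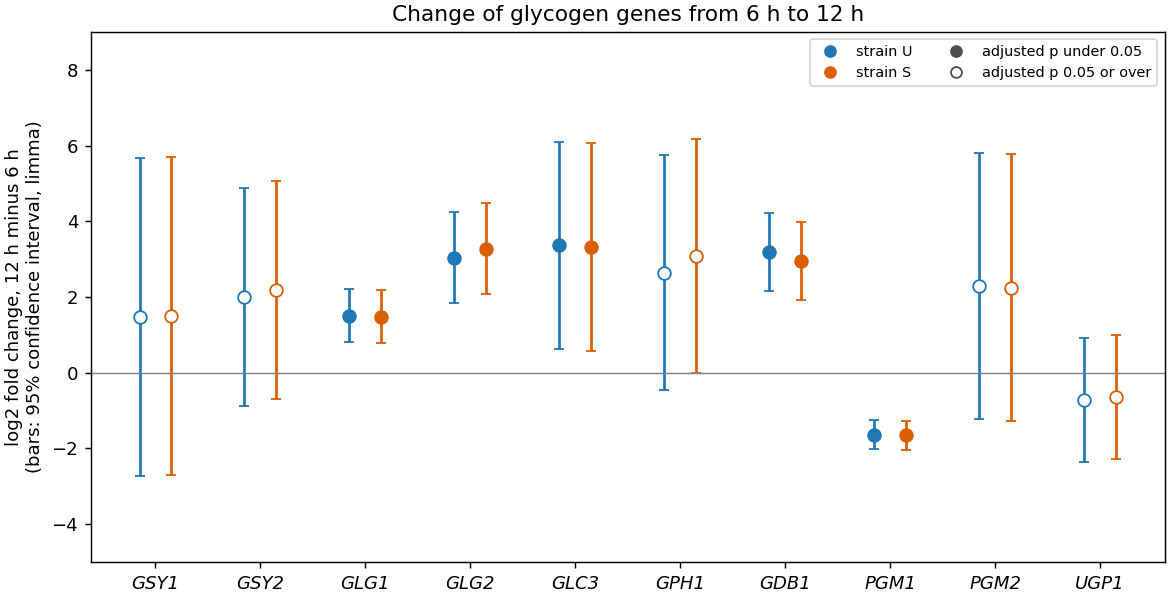
Log2 fold change from 6 h to 12 h (vertical) of each gene (horizontal) in strain U (blue) and strain S (orange), with the 95% confidence interval of limma as bars and filled points where the adjusted p was under 0.05. The intervals of PGM1 and GLG1 are short, and those of GSY1 run from below -2.7 to above 5.6.

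The libraries of 12 h and 6 h did not overlap for 8 of the 10 members in each strain, against 81.1% of all genes in U and 79.9% in S. For 7 of them both libraries of 12 h were above both of 6 h, against 49.2% of all genes in U and 47.1% in S, and for PGM1 both were below, against 31.9% and 32.8%. GSY1 and UGP1 overlapped. At 12 h the levels of GLC3, PGM2 and GSY2 were the highest and overlapped among themselves in both strains. UGP1 and GLG2 came next and overlapped in both strains. GPH1 was below both of them in U (206 and 129 FPKM) and overlapped both in S (246 and 168 FPKM). Lower down, GSY1 overlapped both GLG1 and GDB1. GLG1 and GDB1 overlapped in U but not in S. PGM1 was below every library of the other 9 genes at 12 h.

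At 6 h the 2 libraries of a group lay farther apart than at 12 h for all 10 members in S and for 7 of 10 in U, where GLG1, GDB1 and PGM1 lay closer. All 10 members were higher in replicate 1 than in replicate 2 in U and in S, against 52.6% of all genes in U and 61.3% in S. On the scale of FPKM + 1, 6 members in U and 7 in S were at least 2-fold higher in replicate 1, against 4.59% and 8.42% of all genes. The median log2 difference of the members was 1.81 in U and 2.60 in S, and that of all genes 0.02 and 0.14. GSY1 had the largest gap, 3.36 on the log2 scale in U and 5.01 in S, followed by PGM2 with 3.05 and 4.17. GSY2 (2.24 and 3.55), GLC3 (2.23 and 3.32) and GPH1 (2.21 and 3.88) came next. PGM1 (0.17 and 0.16) and GLG1 (0.03 and 0.88) had the smallest gaps in U. No test was made of these differences, since each rests on 1 library against 1.

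**Figure D3:**
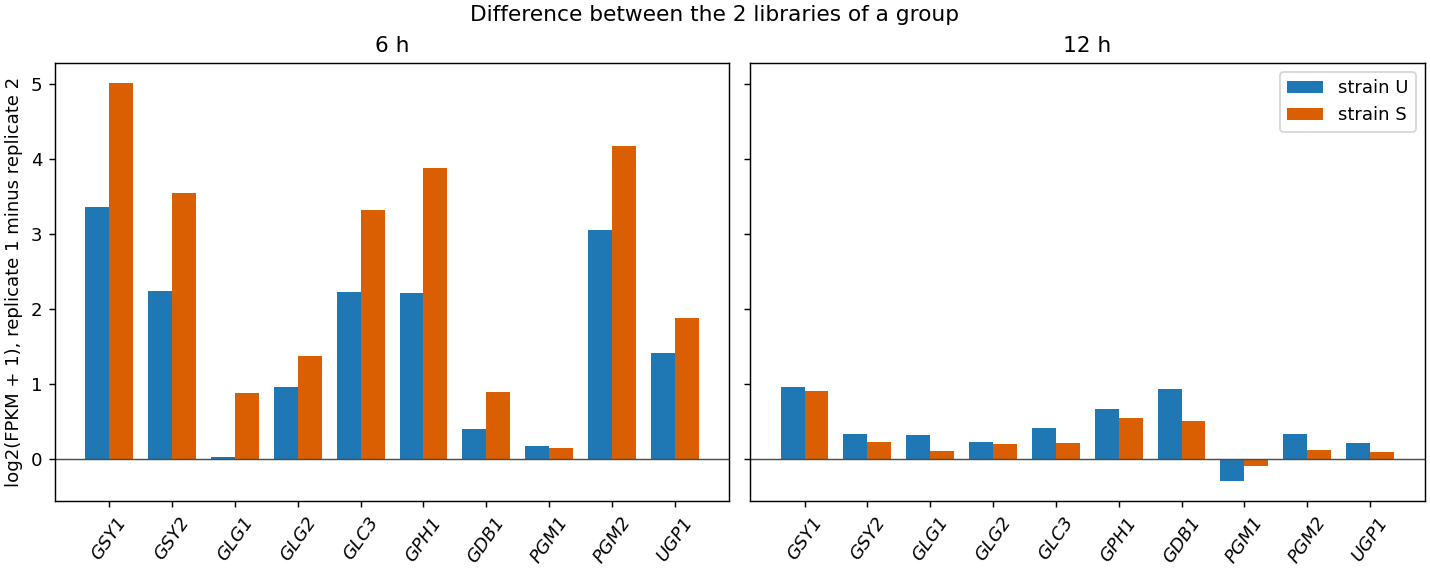
Difference in log2(FPKM + 1) between replicate 1 and replicate 2 (vertical) of each gene (horizontal) at 6 h (left) and 12 h (right), in strain U (blue bars) and strain S (orange bars). At 6 h all bars are above 0 and reach 5.01 for GSY1 in S, and at 12 h they lie between -0.29 and 0.96.

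At 12 h 9 of 10 members were higher in replicate 1 in each strain, against 43.4% of all genes in U and 47.0% in S. The differences between replicates then spanned -0.29 to 0.96 in U and -0.09 to 0.91 in S. In each strain 0 members were at least 2-fold higher in replicate 1, against 1.26% of all genes in U and 1.28% in S. Likewise 0 were at least 2-fold lower, against 135 of 6339 genes in U and 129 in S. A further 8 genes are known targets of Msn2 and Msn4 outside glycogen metabolism: HSP12, CTT1, DDR2, HSP26, HSP42, HSP104, TFS1 and ALD3. They were chosen after values were seen, so they are no independent evidence. Of the 8, 7 in U and 8 in S were higher in replicate 1 at 6 h, against 52.6% and 61.3% of all genes. Their median log2 differences were 1.63 and 2.87. In U the exception was HSP12, at 499 and 816 FPKM in replicates 1 and 2. The summed level of the 8 at 6 h was 3514 and 1177 FPKM in replicates 1 and 2 of U and 3673 and 426 in S, where 1 of the 8 was listed at 0 in replicate 2. The largest parts in replicate 1 of U were HSP42 (1163 FPKM) and HSP104 (1076 FPKM). At 12 h the sum was 91645 and 62754 FPKM in replicates 1 and 2 of U and 91407 and 65675 in S, with HSP12 at 52870 FPKM in replicate 1 of U. At that time 8 of 8 were higher in replicate 1 in both strains. The part of these differences in the results on glycogen genes was not tested. Without both 6 h libraries of number 1, GSY1, GSY2, GPH1 and PGM2 passed the test too, with log2 fold changes of 3.15, 3.12, 3.76 and 3.82 in U and 4.00, 3.97, 5.02 and 4.33 in S. In that fit their adjusted p (limma) was 0.000712 to 0.0118 in U and 0.000504 to 0.00562 in S. That fit called 60.0% of all genes in U and 62.1% in S. Leaving out S 6 h replicate 1 alone gave 9 called members in S, where 57.7% of all genes were called. The changes shrank when replicate 2 of 6 h was left out instead. Without U 6 h replicate 2, GSY2, GPH1 and PGM2 had log2 fold changes of 0.87, 1.54 and 0.77 in U. The same genes had 0.42, 1.14 and 0.16 in S without S 6 h replicate 2. Across all settings the 4 genes had an adjusted p of 0.000668 to 0.941 in U, and in S one of 0.000504 to 0.920.

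A ratio within a library is free of its scaling apart from the pseudocount of 1 that was added to each level or sum. For 3 pairs of isoenzymes and for phosphorylase against synthase, the log2 ratio was compared between the 4 libraries of 12 h and the 4 of 6 h, both strains together, by a two-sided exact permutation test. The smallest p it can give is 0.0286, and p-values were adjusted over the 4 ratios. The test treats the 4 libraries of a time as independent and takes no account of strain or replicate number. At 6 h the differences between replicates correlated across genes between U and S (r = 0.641), so the p-values may overstate the evidence. The log2 ratio of PGM2 to PGM1 was 3.10 ± 0.28 at 12 h and -0.81 ± 2.02 at 6 h (SD, n = 4 each). The difference was 3.92 (exact permutation p = 0.0286, adjusted 0.0381). PGM2 made up 88.1% to 92.0% of the summed FPKM of both genes at 12 h. At 6 h its share was 61.8% and 68.7% in the libraries of replicate 1 and 17.5% and 11.4% in those of replicate 2. The summed level was 335 to 419 FPKM at 12 h and 127 to 402 at 6 h, so replicate 1 of 6 h had a sum near that of 12 h with more PGM1.

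GLG2 was above GLG1 at 12 h, with 68.6% to 70.1% of their sum, and at 6 h it had 51.8% and 35.4% in U and 43.2% and 34.4% in S. The log2 ratio was 1.17 ± 0.06 at 12 h and -0.50 ± 0.46 at 6 h (SD, n = 4 each), a difference of 1.67 (exact permutation p = 0.0286, adjusted 0.0381). The log2 ratio of GSY2 to GSY1 was 1.99 ± 0.38 at 12 h and 1.38 ± 0.76 at 6 h (SD, n = 4 each). The difference of 0.61 did not pass (exact permutation p = 0.286) and was -0.031 without both 6 h libraries of number 1. GSY2 had a smaller share in the replicate 1 libraries at both times, 65.0% and 59.9% at 6 h and 76.2% and 76.2% at 12 h. In the replicate 2 libraries it had 81.4% and 83.0% at 6 h and 83.2% and 83.7% at 12 h.

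GPH1 rose relative to the synthases. Its level was 19.3% to 23.5% of the sum of GSY1 and GSY2 in the 4 libraries of 6 h, although that sum ran from 24.0 to 408 FPKM in them. At 12 h it was 40.9% and 35.2% in U and 53.0% and 46.7% in S. The log2 ratio was -1.20 ± 0.25 at 12 h and -2.12 ± 0.17 at 6 h (SD, n = 4 each), a difference of 0.92 (exact permutation p = 0.0286, adjusted 0.0381). In each strain alone the difference was positive, 0.78 in U and 1.06 in S.

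**Figure D4:**
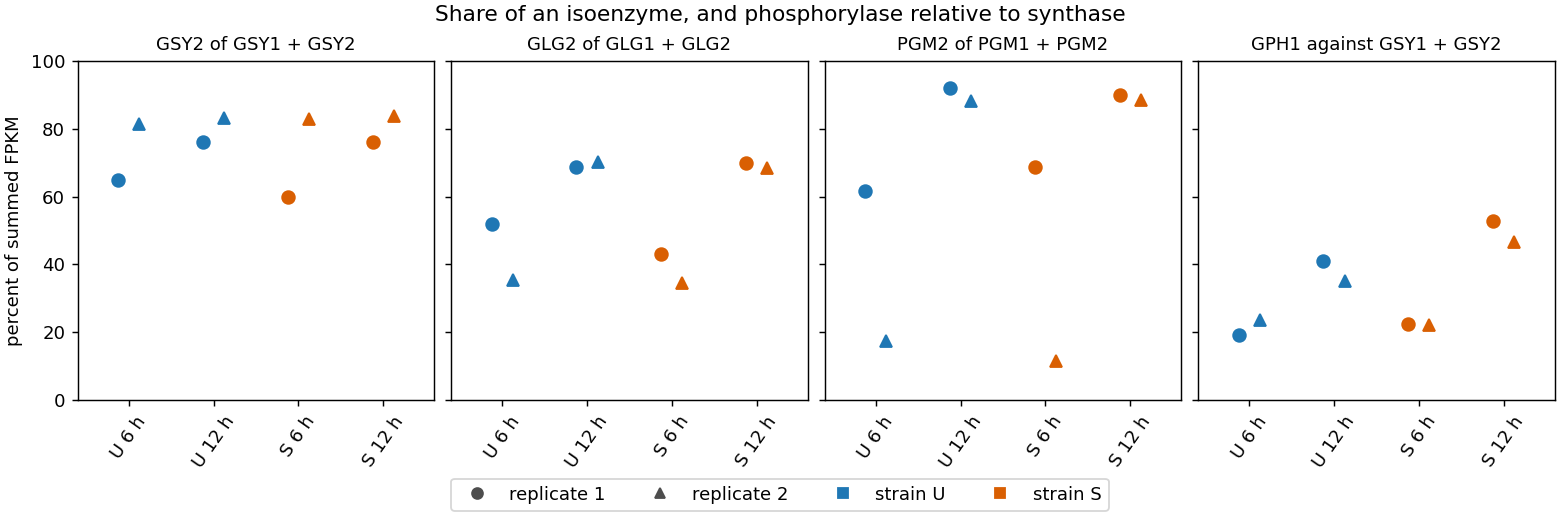
Percent of summed FPKM (vertical) in the 4 groups (horizontal) for GSY2, GLG2 and PGM2 within their pairs, and for GPH1 against the sum of GSY1 and GSY2, with symbols and colours as in the plot of levels by library. The share of PGM2 is 11.4% to 68.7% at 6 h and 88.1% to 92.0% at 12 h. GPH1, which is not part of the sum it is set against, is at 19.3% to 23.5% and 35.2% to 53.0% of it.

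The coding sequences of PGM1 and PGM2 were identical at 72.8% of 1708 aligned bases, those of GSY1 and GSY2 at 73.2% of 2113 and those of GLG1 and GLG2 at 67.5% of 1124. The longest identical run of each pair is shown because it bears on how well reads of 100 bases tell the copies apart: 23 bases for the phosphoglucomutases, 20 for the synthases and 14 for the glycogenins, each read from the first gene named.
PGM1 and PGM2: gttgatgaatttggtttaccggc
GSY1 and GSY2: agggttggtggtatttactc
GLG1 and GLG2: aataaagaattttt
All 3 runs are shorter than a read. No source used here says how reads with more than 1 alignment were assigned.

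Strain S was set against strain U to ask whether the form of Gcr1 changes the glycogen genes. 0 of 10 members passed the test at 6 h, where 0.0789% of all genes did (0.0316% higher in S and 0.0473% lower). At 12 h it was again 0 of 10, against 0.126% of all genes (0.11% higher and 0.0158% lower). With limma, 0 members were under an unadjusted p of 0.05 at either time, and the lowest was 0.650 at 6 h and 0.812 at 12 h. Log2 fold changes of S against U ran from -0.27 for GSY2 to 0.20 for GDB1 at 6 h and from -0.15 for PGM2 to 0.32 for GPH1 at 12 h. The libraries of the strains overlapped for all 10 members at both times, while they did not overlap for 10.7% of all genes at 6 h (5.77% higher in S and 4.89% lower) and 20.6% at 12 h (6.36% higher and 14.3% lower).

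How small a strain difference these libraries could show depended on the gene. For PGM1 the 95% interval at 12 h was -0.39 to 0.38 on the log2 scale, around a mean level of 37.4 ± 5.42 FPKM in U and 37.1 ± 1.73 FPKM in S (SD, n = 2 each). GLG1 had an interval from -0.69 to 0.71, GDB1 from -1.06 to 0.99 and GLG2 from -1.19 to 1.20. For the others the shared estimate of the spread, which includes the 6 h libraries, left wide intervals, up to -4.30 to 4.11 for GSY1. At 12 h U and S had 375 ± 76.3 and 338 ± 36.3 FPKM of GLC3 and 168 ± 54.9 and 207 ± 55.3 FPKM of GPH1 (SD, n = 2 each). At 6 h the log2 fold changes turned with the library left out, from a lowest of -2.63 without S 6 h replicate 1 to a highest of 2.38 without S 6 h replicate 2.

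The difference between the strains in the change from 6 h to 12 h was tested in the same fit. 0 of 10 members passed, with 0.0789% of all genes called (0.0473% higher and 0.0316% lower) and a lowest unadjusted p of 0.706 for GDB1. The differences, S minus U, ran from -0.24 for GDB1 to 0.43 for GPH1, and their 95% intervals reached at least 0.54 to either side. When 1 library was left out they reached -2.47 (S 6 h replicate 2 left out) and 2.54 (S 6 h replicate 1 left out).

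Genes that control these enzymes or act beside them were read in a list of 14: GLC7, the phosphatase that activates glycogen synthase, its known or putative regulatory subunits GAC1, PIG1, PIG2, GIP2 and GLC8, the kinase PHO85 with its cyclins PCL6, PCL7, PCL8 and PCL10, the sporulation glucoamylase SGA1, the inhibitor of debranching IGD1, and PGM3, of the phosphoglucomutase family. The list was chosen with earlier results of these data known. In U 11 of 14 rose and 0 fell, and in S 11 rose and 0 fell. Of all genes, 33.5% rose in U and 33.2% in S, and 21.7% and 22.9% fell. The median log2 fold change of the list was 1.69 in U and 1.51 in S. GLC7 (0.22 and 0.25), PCL6 (0.18 and 0.28) and PGM3 (0.72 and 0.85) did not pass in either strain. In S 6 of 14 passed without S 12 h replicate 2, a fit that called 38.2% of all genes.

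IGD1 had the largest change in the list. It was at 45.3 and 15.3 FPKM at 6 h and 625 and 561 at 12 h in U, and at 63.4 and 8.52 and then 575 and 536 in S, a log2 fold change of 4.43 in U (adjusted p = 0.00709) and 4.49 in S (adjusted p = 0.00672). On the log2 scale SGA1 rose by 2.82 (U) and 2.73 (S), to 22.9 to 24.4 FPKM in the libraries of 12 h. Subunits of Glc7 rose as well in U and S: GIP2 by 2.79 and 2.13, PIG2 by 2.48 and 2.62, PIG1 by 2.09 and 2.05 and GAC1 by 1.74 and 1.41. At 6 h 13 of the 14 genes were higher in replicate 1 in U and 14 in S, with median log2 differences of 0.46 and 0.82, smaller than the 1.81 and 2.60 of the 10 members. Between the strains 0 of 14 passed at either time, against 0.0789% of all genes at 6 h and 0.126% at 12 h. The libraries of the strains did not overlap for 1 of 14 at 6 h (PCL10, higher in S), against 10.7% of all genes. At 12 h they did not overlap for 2 of 14 (GAC1 and GIP2, lower in S), against 20.6%.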

How the data were processed

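RNA of 8 libraries was extracted with hot phenol, made into libraries with a stranded mRNA kit and sequenced from both ends with 100 cycles, per the labels' protocols. The authors deposited 1 FPKM per gene and library. The submitters' processing notes name Cufflinks, TopHat2 2.1.1, FastQC 0.10.1 and bcl2fastq 1.8.2, and the build sacCer3. No source used here gives the version and settings of Cufflinks, the annotation or the use of strand. Depth is unknown. Relative depth was sought from the steps between low values under 2 filters on rows, the second set after the first result was seen. They disagreed (1.78 and 0.892 for S 6 h replicate 2, 0.478 and 0.927 for S 12 h replicate 1, relative to U 6 h replicate 1), so neither was used. The lowest FPKM above 0 among rows of 1000 to 5000 bases was 0.01 to 0.08, and that of a member was 4.09. Library sums ran from 1504396 to 1548312 FPKM.

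The values were analysed as log2(FPKM + 1) for 6339 of 7126 rows, those whose mean over all libraries was 1 FPKM or more, so fold changes understate those of low genes. One limma 3.58.1 fit in R 4.3.3 (cell means of the 4 groups, eBayes with trend, two-sided tests, Benjamini-Hochberg over all genes) gave the 5 comparisons, with 4 residual and 2.33 prior degrees of freedom. The fit and the permutation test were tested on simulated data. Ratios, alignments and motif counts were computed with Python 3.11.15 and Biopython 1.88. Sequences are from the RefSeq R64 genome, the assembly behind sacCer3. The windows end before the annotated start, which is that of the coding sequence. Of the rows, 6048 matched R64 by locus tag. All members were named in every comparison, and of the 14 regulators the 6 with the largest change among those called in U. The members and lists were chosen with earlier results of these data known. The 8 targets of Msn2 and Msn4, the window of 600 bases and the 4 promoters printed were chosen after values were seen. The windows were read from the genome in place of the promoter table first planned.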

Additional observations from a re-analysis of the deposited data

How the results depend on the processing

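GLG1, GLG2, GDB1 and PGM1 kept their calls from 6 h to 12 h in both strains under all 18 other settings: a pseudocount of 0.1, no filter, a filter at 10 FPKM, median-of-ratios scaling, quantile normalization, 2 kinds of block, an empirical Bayes step with no trend, fits restricted to the compared groups, each of the 8 libraries left out and both 6 h libraries of number 1 left out. Of the 10 members, 5 passed in each strain. With a replicate block within each time 10 passed in both strains, where 76.4% of all genes were called in U and 76.0% in S. Without both 6 h libraries of number 1, 9 passed in both, against 60.0% and 62.1% of all genes. With 1 library left out, 4 to 9 passed in S and 4 to 6 in U, while 36.6% to 57.7% of all genes were called in S and 36.9% to 59.2% in U. Directions turned for genes that had not passed: with 1 library left out GSY1 ran from -0.22 to 3.15 in U and from -1.01 to 4.00 in S, and UGP1 from -1.58 to 0.30 in S, where it was 0.30 without both 6 h libraries of number 1. Between the strains 0 members passed under every setting run. The cause of these changes was not tested.

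A single replicate block gave 6 members in each strain, with GPH1 added, and called 59.6% of all genes in U and 60.2% in S. The labels do not say that the numbers mark shared cultures or days. The differences between replicates correlated across genes between U and S (r = 0.641 at 6 h and 0.375 at 12 h), but not between the times (0.0754 in U and 0.00649 in S), and with 2 pairs per comparison they are not taken as pairs. For the 3 ratios that passed, the difference of the log2 ratio, 12 h minus 6 h, stayed positive under a pseudocount of 0.1 and with each library left out. It also stayed positive without both 6 h libraries of number 1 and in each strain alone. For GSY2 to GSY1 that difference turned to -0.031 without both 6 h libraries of number 1. With 2 libraries per group and unknown depth, a gene that did not pass may still differ.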
